A study of Oncorhynchus mykiss with 43 samples.

Results

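The 3 clones described here carried the labels splicing factor U2AF 35 kDa subunit (clone 1RT115H03_B_D02), splicing factor 3A subunit 2 (clone tcay0008.i.02) and fragile X-related protein 2 (clone tcba0020.b.03), and are called U2AF35, SF3A2 and FXR2 below. They were 3 of the 9023 trout cDNA clones on the array, and all 3 belonged to the 1561 clones that were tested, for which at least 5 fish per group were measured. They were chosen by their measured values in these same fish, being higher at 4, 7 and 11 days of refeeding than in fasted fish and lower again at 36 days. The differences of those times from the fasted fish, and of 36 days from the earlier times, are therefore given as a description with no test.

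U2AF35 and SF3A2 are parts of the machinery that removes introns from newly made transcripts. In human cells, U2AF35 is the small subunit of the factor that marks the end of an intron, and SF3A2 belongs to a complex of the U2 small nuclear ribonucleoprotein that is placed on the branch point. FXR2 is in mammals an RNA-binding protein of the fragile X family, found with ribosomes in the cytoplasm and linked to the transport, stability and translation of transcripts, so that it is no part of the spliceosome. Muscle that grows again after starvation makes much new RNA and protein, and both splicing and translation are steps on that way.

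Fast muscle under the dorsal fin was taken from trout about 1 year old of a spring strain. The groups were 8 fish without food for 1 month, and fish from that fasted stock that were then fed above the normal ration for 4 days (9 fish), for 7 days (another 9), for 11 days (8) or until day 36 (9). All refed fish had thus been fasted before, and no continuously fed fish were among the 43. The question was which transcripts change while muscle recovers. The RNA of every fish was turned into 33P-labelled cDNA and put on its own nylon array, which made 43 arrays, and a value is a spot's signal divided by that of the spotted DNA and by the median of the array. Water temperature fell between the samplings, so that time of refeeding, season and body size cannot be told apart. In whole muscle, more cells of a type and more transcript per cell cannot be told apart either.

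The arrays listed a value for 1441 to 2616 clones each, with a median of 2200. The group medians of that number were 2175 in fasted fish and 2372, 2200, 2149 and 2133 at 4, 7, 11 and 36 days. Of 4 clones labelled as skeletal muscle proteins, 2 of troponin C and 1 of myosin light chain 1 had a value in all 43 fish, and skeletal alpha actin had one in 24. SF3A2 and FXR2 had a value in all 43 fish. U2AF35 had one in 40 and none in fasted fish 4 or in fish 5 and 8 of 36 days, whose arrays were among the 7 with the fewest values. Another clone that carried the U2AF35 label, 1RT156M17_A_G09, had a value in 0 fish, so that the account of U2AF35 rests on 1 clone. Other clones of the splicing machinery were not analysed here.

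U2AF35, the small U2AF subunit, was low in fasted muscle and about 2.04-fold higher over the first times of refeeding. Its lowest, median and highest intensities were 0.739, 0.926 and 1.13 in fasted fish, 1.31, 1.96 and 2.33 at 4 days, and 1.50, 1.95 and 2.29 at 7 days. After 11 days of refeeding they were 1.30, 1.88 and 2.30, and after 36 days 0.902, 1.07 and 1.34. All fish without a value were of the fasted and 36-day groups, where U2AF35 was lowest. Whether their values were low could not be told, which limits the levels given for both groups. All 26 fish of 4, 7 and 11 days lay above the highest of the 7 fasted fish with a value. How many of all tested clones separated in this way was not counted. At 36 days 6 of 7 fish lay below the lowest fish of 4, 7 and 11 days, while only 2 of 7 lay above the highest fasted fish. Means were 1.91 ± 0.307 at 4 days (SD, n = 9), 1.94 ± 0.286 at 7 days (n = 9), 1.84 ± 0.349 at 11 days (n = 8) and 1.09 ± 0.143 at 36 days (n = 7), against 0.928 ± 0.135 in fasted fish (n = 7).

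SF3A2, the subunit of the U2-associated complex, followed the same first step on a smaller scale, 1.57-fold over the first times, and stayed between its 2 levels at 36 days. Its lowest, median and highest intensities were 2.02, 2.05 and 2.86 in fasted fish, 2.88, 3.53 and 4.13 at 4 days, and 2.87, 3.41 and 3.87 at 7 days. After 11 days of refeeding they were 2.63, 3.45 and 3.96, and after 36 days 2.23, 2.87 and 3.61. Of the 26 fish of 4, 7 and 11 days, 25 lay above the highest fasted fish, fish 2 at 2.86, which stood clear of the other fasted fish. The exception was fish 6 of 11 days at 2.63. The share of all tested clones with such a separation was not counted. At 36 days all 9 fish lay above the mean of the fasted fish and 5 of 9 above the highest of them, but only 3 of 9 below the lowest fish of 4, 7 and 11 days. Means were 3.53 ± 0.380 at 4 days (SD, n = 9), 3.41 ± 0.348 at 7 days (n = 9), 3.41 ± 0.376 at 11 days (n = 8) and 2.85 ± 0.442 at 36 days (n = 9), against 2.20 ± 0.292 in fasted fish (n = 8).

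FXR2, the cytoplasmic RNA-binding protein, was 2.13-fold higher over the first times than in fasted muscle. Its lowest, median and highest intensities were 2.64, 3.64 and 4.14 in fasted fish, 5.06, 7.21 and 8.36 at 4 days, and 6.84, 7.84 and 11.5 at 7 days. After 11 days of refeeding they were 6.37, 7.29 and 10.2, and after 36 days 2.26, 4.76 and 5.33. All 26 fish of 4, 7 and 11 days lay above the highest fasted fish, a separation whose share among all tested clones was not counted. At 36 days 8 of 9 fish lay below the lowest fish of 4, 7 and 11 days, and 6 of 9 lay above the highest fasted fish. The lowest fish of 36 days, fish 3 at 2.26, was below every fasted fish. Means were 6.99 ± 0.918 at 4 days (SD, n = 9), 8.42 ± 1.45 at 7 days (n = 9), 7.64 ± 1.37 at 11 days (n = 8) and 4.30 ± 0.961 at 36 days (n = 9), against 3.59 ± 0.509 in fasted fish (n = 8).

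**Figure D1:**
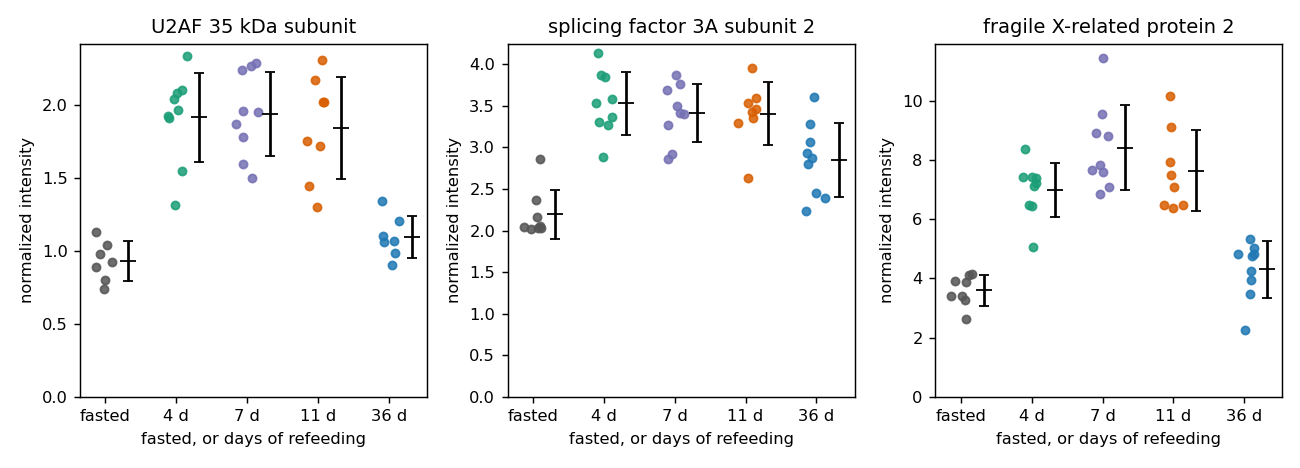
Normalized intensity (linear scale, vertical axis from 0) of the 3 clones in each fish, for fasted fish and after 4, 7, 11 and 36 days of refeeding; a point is a fish and the bar beside each group is its mean ± SD. The U2AF35 and FXR2 points of 4, 7 and 11 days lie above all fasted fish with a value (7 of 8 in U2AF35). How many of all tested clones separate in this way was not counted. The SF3A2 points of 36 days lie between 2.23 and 3.61, overlapping both the fasted fish and the fish of 4, 7 and 11 days.

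On the log2 scale, U2AF35 stood above fasted fish by 1.04 (SE 0.118) after 4 days of refeeding, 1.06 (0.118) after 7, 0.98 (0.121) after 11 and 0.24 (0.125) after 36. SF3A2 stood above them by 0.69 (SE 0.0902), 0.64 (0.0902), 0.64 (0.0928) and 0.37 (0.0902) at the same times. FXR2 stood above them by 0.96 (SE 0.127), 1.23 (0.127), 1.08 (0.131) and 0.23 (0.127). The highest mean was at 7 days in U2AF35 and FXR2 and at 4 days in SF3A2, although no difference among the first 3 times passed after adjustment.

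These differences ranked high on the array at the first times, in contrasts that chose the clones, and lower at 36 days. At 36 days 86.9% of clones stood below SF3A2, 79.5% below U2AF35 and 78.9% below FXR2. Ordered from the largest rise down among 1561 clones, U2AF35 ranked 4, 16, 19 and 320 after 4, 7, 11 and 36 days. FXR2 ranked 7, 7, 15 and 330 at those times, and SF3A2 ranked 33, 54, 72 and 204. The median clone stood -0.03, -0.02, 0.01 and -0.05 from fasted fish on the log2 scale. Values had been divided by a median of their array, so that all changes are relative to the array. The medians of the deposited values still ran from 2.04 to 3.63 among arrays. Against 11 days, FXR2 at 36 days had the lowest difference of all 1561 clones, -0.85 (SE 0.127) on the log2 scale. Against 7 days it had the second lowest, -0.99 (0.123). These contrasts too had chosen the clones, and both ranks include fish 3 of 36 days, the lowest in FXR2. Without that fish FXR2 was at -0.739 against 11 days, where U2AF35 was at -0.785, so that FXR2 was then not the lowest.

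At an adjusted p under 0.0001 in limma, 2.43% of the 1561 clones were called higher after 4 days than in fasted fish, 3.27% after 7, 5% after 11 and 5.38% after 36 days. The 3 clones, chosen by their values in these contrasts, were all among those called at 4, 7 and 11 days. None of them was called at 36 days. Lower calls at 36 days against 4 days took in 2.31% of all clones, with U2AF35 and FXR2 among them and SF3A2 not. At an adjusted p under 0.05, SF3A2 was among the 228 clones higher at 36 days than in fasted fish. It was also among the 308 lower at 36 than at 4 days. Because of the choice, these calls of the 3 clones are no test. The balance of all calls depended on the scaling. At 36 days against fasted fish there were 84 higher and 66 lower calls as deposited but 20 and 36 after quantile normalization, and against 4 days 25 and 36 but 0 and 27. At 7 days against fasted fish the counts were 51 and 17 as deposited, and 44 and 4 after quantile normalization. At 11 days they were 78 and 25 as deposited, and 28 and 9 after quantile normalization. They were 59 and 35 after centring on the complete clones, those measured on all arrays.

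**Figure D2:**
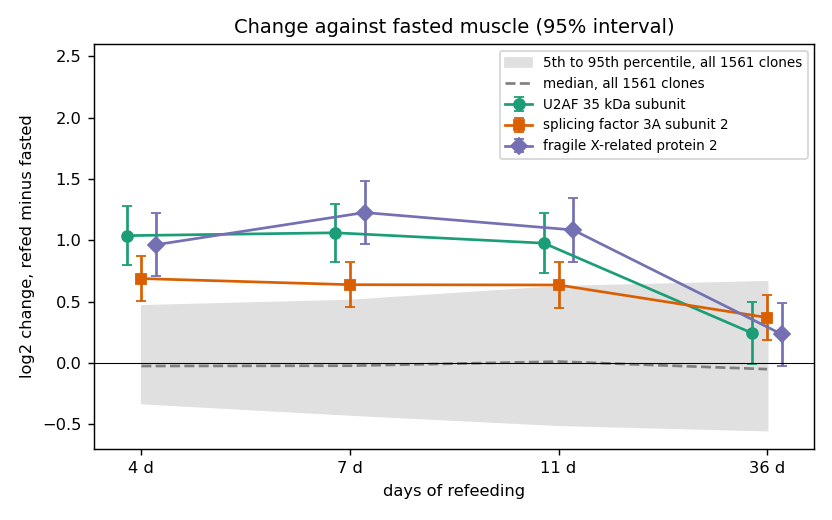
Log2 difference of each refed group from fasted fish (vertical axis) at 4, 7, 11 and 36 days for the 3 clones, with 95% intervals, over the 5th to 95th percentile (grey) and the median (dashed) of all 1561 clones tested. The points of the 3 clones lie above the grey band at 4, 7 and 11 days, SF3A2 at 11 days only just (0.635 against an edge of 0.624). The intervals of SF3A2 at 7 and 11 days reach into the band. At 36 days all 3 lie inside it, with SF3A2 at 0.37, U2AF35 at 0.24 and FXR2 at 0.23.

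The first 3 times of refeeding were not used against each other in choosing the clones, and were tested. The choice did ask for a higher value at each of these times, which can favour clones with like levels there. A lack of difference among them is therefore weak evidence. Between 7 and 4 days, U2AF35 differed by 0.02 on the log2 scale (95% interval -0.20 to 0.25, limma adjusted p = 0.979) and SF3A2 by -0.05 (-0.23 to 0.13, adjusted p = 0.979). FXR2 differed by 0.26 (0.01 to 0.51), which gave an unadjusted p of 0.0385 and an adjusted p of 0.497 in limma over the 1561 clones. The difference of FXR2 thus did not pass after adjustment.

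Between 11 and 4 days the limma differences were -0.06 for U2AF35 (95% interval -0.29 to 0.17, adjusted p = 0.851), -0.05 for SF3A2 (-0.23 to 0.13, adjusted p = 0.832) and 0.12 for FXR2 (-0.13 to 0.38, adjusted p = 0.662). Between 11 and 7 days they were -0.08 (-0.31 to 0.14), 0.00 (-0.18 to 0.18) and -0.14 (-0.40 to 0.11) for U2AF35, SF3A2 and FXR2, each with an adjusted p of 1.00. None of the 9 differences passed after adjustment, and the interval of FXR2 between 7 and 4 days, which before adjustment did not include 0, reached 0.51. Among all 1561 clones limma called 0% between 7 and 4 days (132 clones had p under 0.05 before adjustment), 0.256% between 11 and 4 days, and 0% when 11 was set against 7 days (68 clones before adjustment).

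By 36 days the 3 clones had come part of the way back. Of its mean difference over 4, 7 and 11 days, 23.6% (SE 11.0) was left at 36 days in U2AF35, 21.4% (SE 10.7) in FXR2 and 56.6% (SE 10.4) in SF3A2. After quantile normalization these shares were 6.22%, 10.1% and 36%. That of FXR2 was 10.2% without the 5 arrays with the fewest values and 30.5% with array weights. It was 33.5% without the fish that stood far from their group. That of SF3A2 was 45.6% with array weights and 61.1% without the 5 arrays. The shares of all 3 clones are thus known only roughly. SF3A2 had the largest share in each alternative that was run. U2AF35 at 36 days was 0.24 above fasted fish (95% interval -0.01 to 0.49), FXR2 0.23 (-0.02 to 0.49) and SF3A2 0.37 (0.19 to 0.55). Without fish 3 of 36 days, a step added after the values were seen, the FXR2 difference was 0.34, that of U2AF35 0.19 and that of SF3A2 0.33.

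The difference between 2 clones within a fish does not depend on any single factor by which its array was divided, and was used to set the clones side by side. U2AF35 gained on SF3A2 by 0.37 (95% interval 0.12 to 0.63, 40 fish) over 4, 7 and 11 days against fasted fish, and lost 0.48 at 36 days against those times (-0.74 to -0.23). FXR2 gained on SF3A2 by 0.44 (0.16 to 0.72, 43 fish), and its difference from SF3A2 at 36 days against those times was -0.57 (-0.84 to -0.31). FXR2 and U2AF35 kept their distance, with a shift of 0.00 (-0.27 to 0.28) over the first times and -0.10 (-0.38 to 0.18) at 36 days against them. The intervals are those of mean shifts, not of single fish, and are a description, since such contrasts had chosen the clones. At 36 days against fasted fish the 3 differences lay between -0.14 and -0.10, and each interval spanned 0. Fish 3 of 36 days was the lowest of its group in both differences with FXR2. It stood at -1.38 for FXR2 minus SF3A2 and -1.26 for FXR2 minus U2AF35, relative to the fasted mean. The shifts of FXR2 at 36 days were not recomputed without it, so that even their direction against fasted fish is uncertain.

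**Figure D3:**
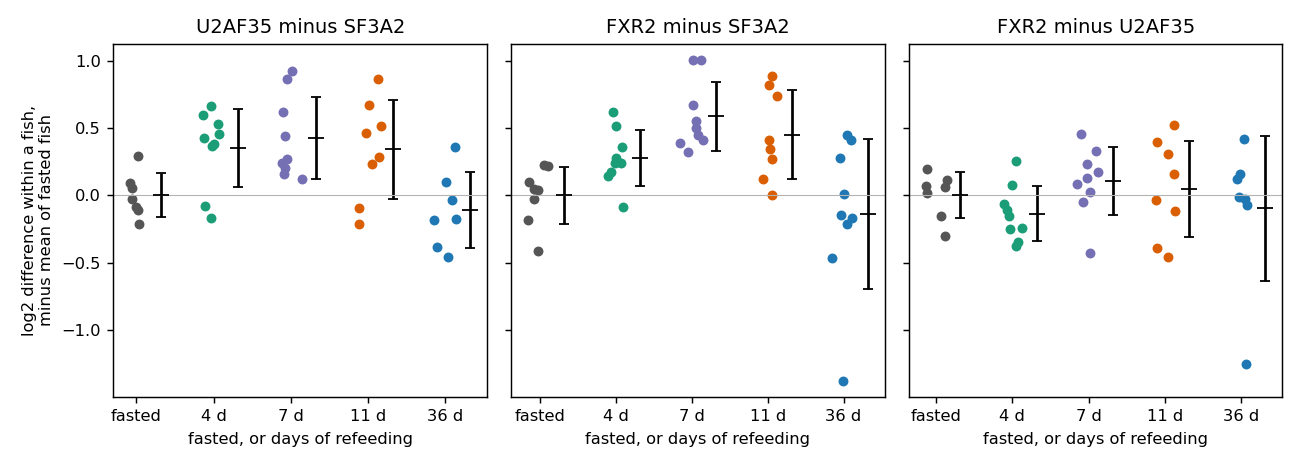
Log2 difference between 2 of the 3 clones in the same fish (vertical axis, less the mean of fasted fish) in fasted fish and at 4, 7, 11 and 36 days; points are fish and bars are mean ± SD. The means of U2AF35 and FXR2 minus SF3A2 lie above 0 at 4, 7 and 11 days, with some fish below 0, and near or below 0 at 36 days, while FXR2 minus U2AF35 shifts by 0.00; the lowest point at 36 days in the panels with FXR2 is fish 3.

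Whether the 3 transcripts also varied together from fish to fish under the same feeding was examined with the deviations of each fish from its group mean. Over all fish, with the group differences left in, r was 0.72 for U2AF35 and SF3A2, 0.81 for U2AF35 and FXR2 and 0.64 for SF3A2 and FXR2, which the choice of the clones fixes. Without the group differences, U2AF35 and SF3A2 had r = 0.05 (rho = 0.05, permutation p = 0.775 and 0.769, 40 fish). U2AF35 and FXR2 had r = 0.16 (rho = 0.15, permutation p = 0.314 and 0.390, 40 fish). SF3A2 and FXR2 had r = -0.15 (rho = 0.01, permutation p = 0.418 and 0.949, 43 fish). Adjusted over the 3 pairs, the permutation p of r was 0.775, 0.628 and 0.628 and that of rho 0.949 in each pair. Fish with more of one transcript than others on the same feeding were thus not seen to have more of another.

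Without the 2 fish farthest out on the first clone of the pair, r was -0.00, -0.02 and -0.21. Over all 242556 pairs of the 697 complete clones the median r was 0.098, with 5% of the pairs under -0.296 and 5% above 0.566. Quantile normalization raised the r of the 3 pairs to 0.532, 0.434 and 0.394 (permutation p = 9e-04, 0.0101 and 0.0240), and raised that median of all pairs to 0.435. Under either scaling the 3 pairs thus stood inside the range of the array as a whole.

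Within single groups the 15 values of r ran from -0.65 to 0.67, and the lowest exact permutation p adjusted over the 15 was 0.516. The lowest r was that of SF3A2 and FXR2 at 36 days (rho = -0.52, exact permutation p = 0.0509 for r and 0.162 for rho, n = 9), and r was -0.29 without the 2 fish farthest out on SF3A2. Fish 3 of 36 days had the highest U2AF35 (1.34) and the highest SF3A2 (3.61) of its group, and the lowest FXR2 (2.26). The highest r was that of U2AF35 and SF3A2 in fasted fish (rho = 0.36, exact permutation p = 0.103 and 0.444, n = 7), where r was 0.28 without the 2 fish farthest out.

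**Figure D4:**
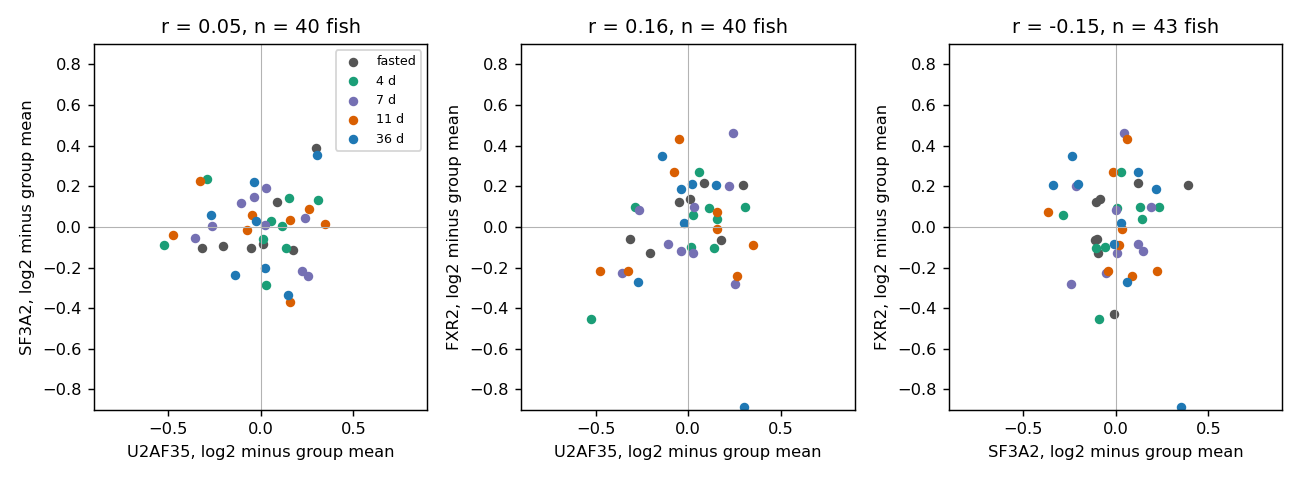
Deviation of each fish from its group mean (log2, both axes) for the 3 pairs of clones; points are fish, coloured by group. The clouds have r of 0.05, 0.16 and -0.15, and the point at the bottom of the panels with FXR2 is fish 3 of 36 days.

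The spread between fish of a group differed among the clones. The residual SD on the log2 scale was 0.178 in SF3A2, 0.236 in U2AF35 and 0.267 in FXR2, against a median of 0.231 over all 1561 clones, and 16.4%, 53.0% and 68.7% of clones had a lower one. The smaller rise of SF3A2 was thus measured with the smallest error. Deviations of the 3 clones had r of -0.09 (U2AF35), 0.20 (SF3A2) and 0.26 (FXR2) with the median of the complete clones of the array, and of -0.11, 0.17 and 0.05 with the number of values on the array.

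The clones most like each of the 3 over the single fish were looked up among up to 1541 clones with at least 30 fish in common, as a description. For U2AF35 the closest was clone 1RT142P17_B_H09, which has no label here, with r = 0.92 over 37 fish. It stood 0.69, 0.71, 0.62 and -0.03 from fasted fish at 4, 7, 11 and 36 days on the log2 scale, and had r = 0.76 with U2AF35 in the deviations from group means. Over the 5 group means alone it ranked 21. Next came a clone labelled eukaryotic translation initiation factor 2 subunit 1, a part of the factor that brings the initiator tRNA to the ribosome, with r = 0.84 over 39 fish. FXR2 was the seventh, with r = 0.81, and SF3A2 ranked 30.

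For SF3A2 the closest was a clone labelled DNA2-like homolog, a nuclease and helicase of DNA replication in yeast and human, with r = 0.90 over 35 fish. Its means stood 0.60, 0.71, 0.68 and 0.49 from fasted fish at 4, 7, 11 and 36 days, so that it too stayed up at 36 days. Its fasted mean rested on 5 fish, the fewest allowed for a tested clone. Over the 5 group means alone it ranked 23. U2AF35 ranked 19 and FXR2 ranked 41 in likeness to SF3A2. The second and the third in this order have no label here.

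For FXR2 the closest was clone 1RT147L07_B_F04, without a label here, with r = 0.87 over 40 fish and means 0.58, 0.79, 0.79 and 0.11 from fasted fish at 4, 7, 11 and 36 days. In the deviations from group means it ranked 48. Next was a clone labelled NADH-ubiquinone oxidoreductase chain 1, a subunit of complex I of the mitochondrial respiratory chain, with r = 0.86 over 43 fish and means of 0.65, 0.74, 0.70 and 0.03. U2AF35 was the seventh and SF3A2 ranked 56. Of the 30 clones most like each, U2AF35 and FXR2 had 15 in common (50% of each list), SF3A2 and FXR2 had 7 (23.3%) and U2AF35 and SF3A2 had 5 (16.7%). The 2 splicing factors thus shared fewer of their closest clones than U2AF35 shared with FXR2, in lists that rest on the same 43 fish. The lists used r with the group differences left in, and by such differences U2AF35, SF3A2 and FXR2 had been chosen. Overlap of lists made from the deviations was not tested, and no relation between the genes is drawn from these counts.

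**Figure D5:**
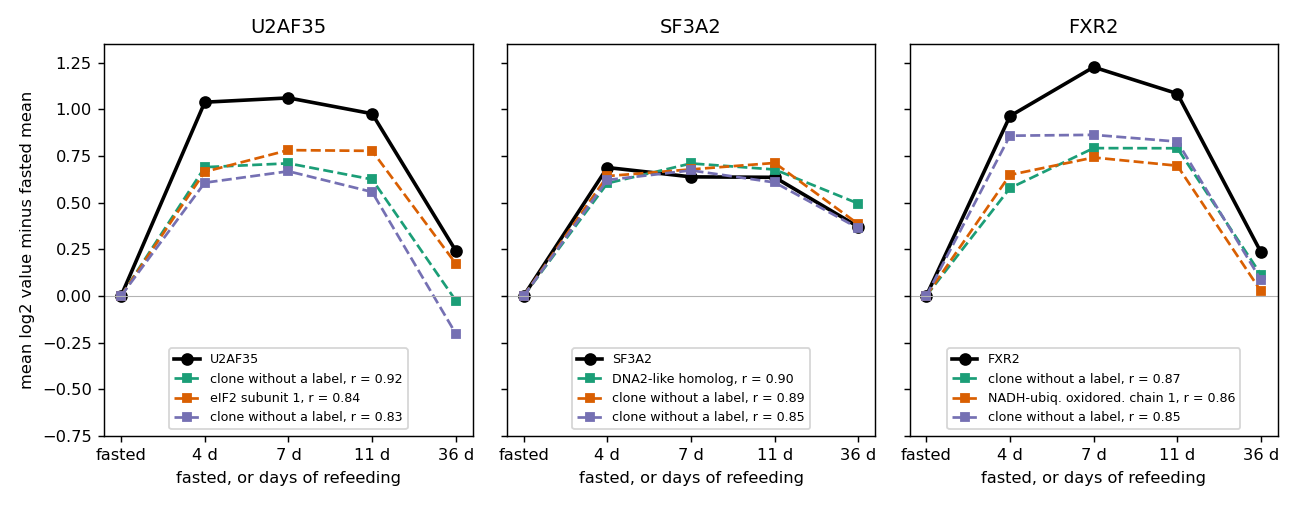
Mean log2 value less the mean of fasted fish (vertical axis) in fasted fish and at 4, 7, 11 and 36 days for each of the 3 clones (black) and the 3 clones closest to it by r over fish (coloured, dashed; r in the legend). The clones closest to SF3A2 remain above fasted fish at 36 days (0.49 in the DNA2-like homolog, measured in 5 fasted fish). Those closest to FXR2 come back to 0.03 to 0.11.

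The likeness of the 3 clones to other clones was set beside the names of those clones. The first part of a name was taken as its library and the number after it as its plate, which the labels do not state. In the deviations, the median r with clones of the same library was 0.10 in SF3A2, 0.09 in U2AF35 and 0.09 in FXR2. With clones of other libraries it was 0.06, 0.05 and 0.03. The name of SF3A2 begins with tcay0008, read here as a plate of a tcay library, as does that of the DNA2-like homolog (tcay0008.h.02). The tcay library held 10.4% of the 1541 clones compared with SF3A2 and 6 of the 10 closest, and 2 of those 10 were among the 4 compared clones of its own plate. The deviations of those 4 clones from group means had r of 0.15 to 0.72 with SF3A2 (median 0.45), against a median of 0.06 over all clones. For U2AF35, 4 of the 10 closest came from its own library, which held 48.4% of the clones compared. The 2 clones of its plate had r of 0.35 to 0.60 (median 0.48, against 0.07 over all clones). For FXR2, 1 of the 10 closest came from its library, which held 5.19%. The 2 clones of its plate had r of -0.31 to 0.03 (median -0.14, against 0.03 over all clones). The part of plate or library in these likenesses was not tested.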

How the data were processed

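The authors excluded spots with a low oligonucleotide signal, corrected the others for the vector oligonucleotide hybridised to the same spot and for the array median, and deposited the result as normalized intensity on a linear scale. Spots were quantified with BZScan, per the study's methods. Clone names came from the study's own labels, and none of the value columns was left out (0). Of 9216 rows, 193 control rows were dropped. Empty cells (285556) and zeros (10107) of the clones were taken as missing, and none of the 3 clones had a 0. Intensities ran from 0.221 to 131.9, and the median of the values of an array from 2.04 to 3.63, and the number of arrays limits the precision.

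A linear model with a mean for each group was fitted to the log2 values of 1561 clones, those with 5 or more fish per group, using limma 3.58.1 under R 4.3.3. P-values were two-sided, adjusted by Benjamini and Hochberg, and called under 0.0001. Co-variation was tested with 100000 permutations within groups, or exactly within a group (two-sided; scipy 1.17.1, numpy 2.4.6, pandas 2.3.3, Python 3.11.15, with plots in matplotlib 3.10.9). Both procedures were tested on simulated data.

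The genes named were to be the 3 clones, other clones labelled as the same gene or family, and for each the 3 clones most like it, of which at most 2 without a label are named. Skeletal muscle clones were named to check the tissue. The 3 clones, the comparisons and the lists were chosen with earlier results of these data known. The planned list of splicing genes could not be matched to clones, and sequences of the clones were not used here. Replicate numbers showed no general pairing of the fish. Deviations of fish with the same number had a median r of -0.01 over 82 pairs (-0.487 to 0.511). Fish with other numbers had a median r of -0.0004 over 657 pairs (-0.635 to 0.652). A median cannot show a link shared by only some numbers, which was not tested. Alternatives were quantile normalization, centring on the complete clones, an offset of 0.1, other filters on clones (values on all arrays, no minimum, the dimmest 25% left out), fits to 2 groups, array weights (statmod 1.5.0), a replicate block, the number of values as a covariate, an intensity trend, an adjusted p under 0.05, and leaving out 5 arrays with the fewest values or fish far from their group. Leaving out fish 3 of 36 days alone was added after seeing the data.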

Additional observations from a re-analysis of the deposited data

Results flagged for a closer look

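In 3 of 15 sets of fish looked at (3 clones in 5 groups), 1 fish stood apart by the gap to its neighbour over the range of its group on the log2 scale, where chance alone marks about 1 set in 20. FXR2 in fish 3 of 36 days was the lowest of its group, at an intensity of 2.26 and a gap of 0.496 of the range. SF3A2 in fish 6 of 11 days was the lowest of its group (2.63, gap 0.552). SF3A2 in fish 2 of the fasted group was the highest of its group (2.86, gap 0.535). None of these 3 arrays was among the 7 with the fewest values, and the cause was not tested.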

How the results depend on the processing

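No difference of the 3 clones among the first 3 times was called in any alternative run. Of 280 recomputed differences against fasted fish and of 36 days against earlier times, all kept their direction and 8 moved by over 1.5 times. Many of the 280 could not move. The other filters on clones, the fits to 2 groups and the intensity trend leave the group means of a clone as they are. The share of 8 in 280 is therefore no measure of how stable the differences were. At 36 days against fasted fish U2AF35 was 0.06 after quantile normalization, and FXR2 was 0.12 after it, 0.10 without 5 arrays, 0.35 with array weights and 0.37 without the 3 fish that stood apart. SF3A2 at 36 days was -0.49, -0.50 and -0.40 against 4, 7 and 11 days after quantile normalization, which also shifted the medians of all clones to -0.24, -0.28 and -0.21. Relative to the median, the second was -0.22, against -0.20 as deposited. Differences near 0 changed sign between 7 and 4 days for U2AF35 (-0.0042 after centring on complete clones) and SF3A2 (0.0128 after quantile normalization). Between 11 and 7 days SF3A2 was 0.0003 with the replicate block, 0.0053 with the number of values and 0.05 without the 3 fish that stood apart.

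Counts of all clones called moved more. At an adjusted p under 0.05 they were 116, 194, 257 and 228 higher at 4, 7, 11 and 36 days than in fasted fish, 308 lower at 36 than at 4 days, and 10 and 98 for 7 and 11 days against 4 days. Higher calls against fasted fish were 11 at 4, 28 at 11 and 20 at 36 days after quantile normalization, and 15, 25, 38 and 48 at 4, 7, 11 and 36 days over complete clones, of which there were fewer to test. With only 2 groups in the fit there were 29, 36 and 43 at 7, 11 and 36 days. Without 5 arrays there were 19 at 4 days, and without the fish that stood apart 47 at 36 days. Lower calls at 36 against 4 days were 13 over complete clones, 58 with array weights and 23 without 5 arrays. For 7 against 4 days array weights gave 1. For 11 against 4 days there were 0 after quantile normalization, 35 with array weights, 1 with the replicate block, 1 without 5 arrays and 11 without the fish that stood apart. The replicate block also gave 14 lower calls at 11 days against fasted fish (25 without it), and 3 higher and 17 lower at 36 against 7 days (1 and 29 without it). It moved no other count of calls by over 1.5 times and changed no call of the 3 clones.

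The r of U2AF35 and SF3A2 was 0.532 after quantile normalization, -0.039 on linear values, -0.118 without the fish that stood apart and -0.003 without the 2 farthest fish. That of U2AF35 and FXR2 was 0.434, 0.369 without the fish that stood apart (permutation p = 0.0423) and -0.016 without the 2 farthest. That of SF3A2 and FXR2 was 0.394 after quantile normalization, 0.01 by ranks and 0.023 without the fish that stood apart. U2AF35 could not be recomputed over complete clones or without the dimmest 25%, since it is in neither set. The causes were not tested.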
